A study of Mus musculus with 6 samples.

Results

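The genes of arginine metabolism described here are Ass1, Asl, Arg1, Arg2, Oat, Odc1, Nos1, Nos2 and Nos3. They were chosen by name, as every probe set whose annotation holds one of these symbols, which gave 13 probe sets for 9 genes among the 22690 probe sets of the array. The group was picked because the signal of Ass1 was much lower in the mutants, so the difference of Ass1 between the groups is given as a description and was not tested. The lenses came from newborn (P0) mice, 3 samples from conditional mutants of the line Le-AP-2alpha and 3 from wild-type littermates, with 1 array per sample. The mutants are targeted at Tfap2a (Tcfap2a in the labels), which encodes the transcription factor AP-2alpha. The series asks what AP-2alpha does within the lens. In the published mouse line named Le-Cre, Cre is driven by Pax6 regulatory sequence in the surface ectoderm that forms the lens, but the labels give neither the driver nor the strain, whether the wild types carried Cre, or whether a sample was 1 animal or a pool.

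Argininosuccinate synthase joins citrulline and aspartate, and argininosuccinate lyase splits the product into arginine and fumarate. In the liver this pair belongs to the urea cycle, while in most other tissues it remakes arginine from citrulline. Arginine is then cut by arginases to ornithine and urea, or oxidised by nitric oxide synthases to nitric oxide and citrulline. Ornithine goes on to polyamines through ornithine decarboxylase, or towards glutamate and proline through ornithine aminotransferase.

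All levels are the log2 of the deposited intensity of a probe set, and all differences are mutant minus wild type on that scale with the standard error (SE) of a limma fit. A probe set is called dim where its mean over the arrays lies under that of the median probe set. Array medians ran from 5.19 to 5.32. The array of wild-type replicate 1 was unlike the rest: its Pearson correlation with them, across probe sets, was 0.926 to 0.945, whereas the other 5 correlated at 0.974 to 0.985 with each other. The fibre crystallin Cryaa was at 13.63 to 13.76 in mutants and 13.67 to 13.81 in wild types. Foxe3, a factor of the lens epithelium, was dim, but 7 of the 8 lens epithelium genes listed were not. The brightest Tfap2a probe set was at 9.57, 9.64 and 9.83 in mutants and 8.36, 9.26 and 9.56 in wild types. Every mutant was above every wild type there, but only narrowly, with mutant 1 at 9.57 beside wild type 3 at 9.56. On the other Tfap2a probe sets the groups overlapped. All 3 Tfap2a probe sets had higher means in mutants, by 0.62 ± 0.33, 0.36 ± 0.36 and 1.57 ± 0.49 (SE), and the exons that their probes cover are not known here. The labels do not say that samples came from separate animals, so the spread behind each p-value may be technical, and precision is limited by having 3 arrays per group. No batch or scan date accompanies the values.

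Ass1 had low signal in every mutant lens and a narrow, higher signal in every wild-type lens. Its single probe set was at 4.39, 3.56 and 4.23 in mutants 1 to 3, against 6.82, 6.95 and 6.93 in wild types 1 to 3. The groups were well apart: the highest mutant lay 2.43 under the lowest wild type, while the mutants spanned 0.83 and the wild types 0.13 among themselves. The mean level was 4.06 ± 0.44 in mutants, against 6.90 ± 0.07 in wild types (SD, n = 3 each), a difference of -2.84 ± 0.26 (SE), or 7.15-fold lower in mutants. On the linear scale this was a mean intensity of 17.2 ± 4.78 in mutants and 119.6 ± 5.61 in wild types. Of the 22626 probe sets other than array controls, 1 had a more negative difference.

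Among mutants the SD of Ass1 was 0.44, against a median SD of 0.24 over all probe sets, with mutant 2 the lowest. Among wild types it was 0.07, against a median of 0.36, and 4.92% of probe sets had a smaller one. The wild-type lenses were thus closer to each other in Ass1 than in most of the array, and wild-type replicate 1, which differed from the other arrays elsewhere, was within 0.13 of them. All 3 mutants lay under the median level of their own array and all 3 wild types above it. The mutant mean exceeded that of 38.7% of probe sets, and the wild-type mean that of 66.6%. With 32 added to each intensity before the log, which shrinks differences that rest on low values, the difference was -1.63. The annotation of this probe set also lists Gm5424, a transcribed pseudogene of another locus, and the signal of the pseudogene and of Ass1 cannot be told apart here. As the samples are whole lenses, fewer cells that express Ass1 and less Ass1 RNA per cell cannot be told apart either.

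Summed marker intensities are given beside this difference. Each sum follows its brightest members, so it is no measure of the share of a cell type. The 8 lens epithelium genes summed to 15198 to 15876 in mutants and 12554 to 17234 in wild types, with 5 of 8 lower in mutants and 3 higher. Most of this sum came from Sparc and Gja1, so it says little about the dimmer members. Of the lower genes, Cdh1 differed by -1.29 ± 0.30 and Slc38a3 by -1.04 ± 0.40 (SE), with every mutant below every wild type. Of the higher genes, Pax6 differed by 0.47 ± 0.47. The 10 fibre genes summed to 68432 to 76082 in mutants and 75578 to 89140 in wild types, with 8 of 10 lower. Much of the fibre sum came from crystallins near the top of the array range, where a change may not show. The sums of both lists overlapped between the groups. Retina and pigment cell genes summed to 1826 to 2443 in mutants and 810 to 1310 in wild types, with 11 of 12 higher, and endothelial genes to 2051 to 2406 in mutants and 2428 to 2840 in wild types, with 7 of 11 lower. The sums of these 2 lists did not overlap between the groups. For endothelial genes the split was marginal, with the highest mutant at 2406 beside the lowest wild type at 2428, and 4 of 11 were higher. Corneal stroma genes summed to 488 to 1027 in mutants and 352 to 581 in wild types, with 10 of 11 higher. The 4 blood genes were all dim and summed to 30 to 335 in mutants and 28 to 196 in wild types. The part of these cell types in the Ass1 signal was not tested. The 3' minus 5' difference of the Gapdh control probe sets, a measure of RNA integrity, was 1.07, 1.39 and 0.75 in mutants and 1.07, 0.73 and 1.20 in wild types, which overlap.

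The start of the Ass1 gene is shown because the study targets an AP-2 factor, and AP-2 proteins bind GC-rich sites. The sequence covers 250 bases before to 50 after the RefSeq start of Ass1, at chr2:31470020-31470319 on the plus strand of GRCm38.p6. Capitals mark the match to GCCNNNNGGC.

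Ass1 promoter: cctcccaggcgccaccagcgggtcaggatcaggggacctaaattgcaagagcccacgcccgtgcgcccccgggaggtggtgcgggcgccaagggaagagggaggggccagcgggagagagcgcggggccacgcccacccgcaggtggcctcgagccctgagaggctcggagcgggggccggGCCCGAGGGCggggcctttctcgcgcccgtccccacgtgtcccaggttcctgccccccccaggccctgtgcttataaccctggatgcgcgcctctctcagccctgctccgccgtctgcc

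Both searched forms of the AP-2 motif, GCCNNNGGC and GCCNNNNGGC, read the same on both strands. The Ass1 window held 0 matches to the shorter form and 1 to the longer form, GCCCGAGGGC, which begins 69 bases before the start. Of 32851 RefSeq promoters of the same length, 16.6% held the shorter form, 14.8% the longer and 27% at least 1 of the pair. The Ass1 window is 74% G and C, more than 95.2% of those promoters. Both forms fix only G and C, and the share with a match among windows as rich in them was not counted. RefSeq windows were matched for 4 of the 9 genes. Oat held 1 match to each form, Odc1 held 1 to the shorter and 3 to the longer, and Nos1 held 0 of either. A match is a stretch of letters and no measure of binding.

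**Figure D1:**
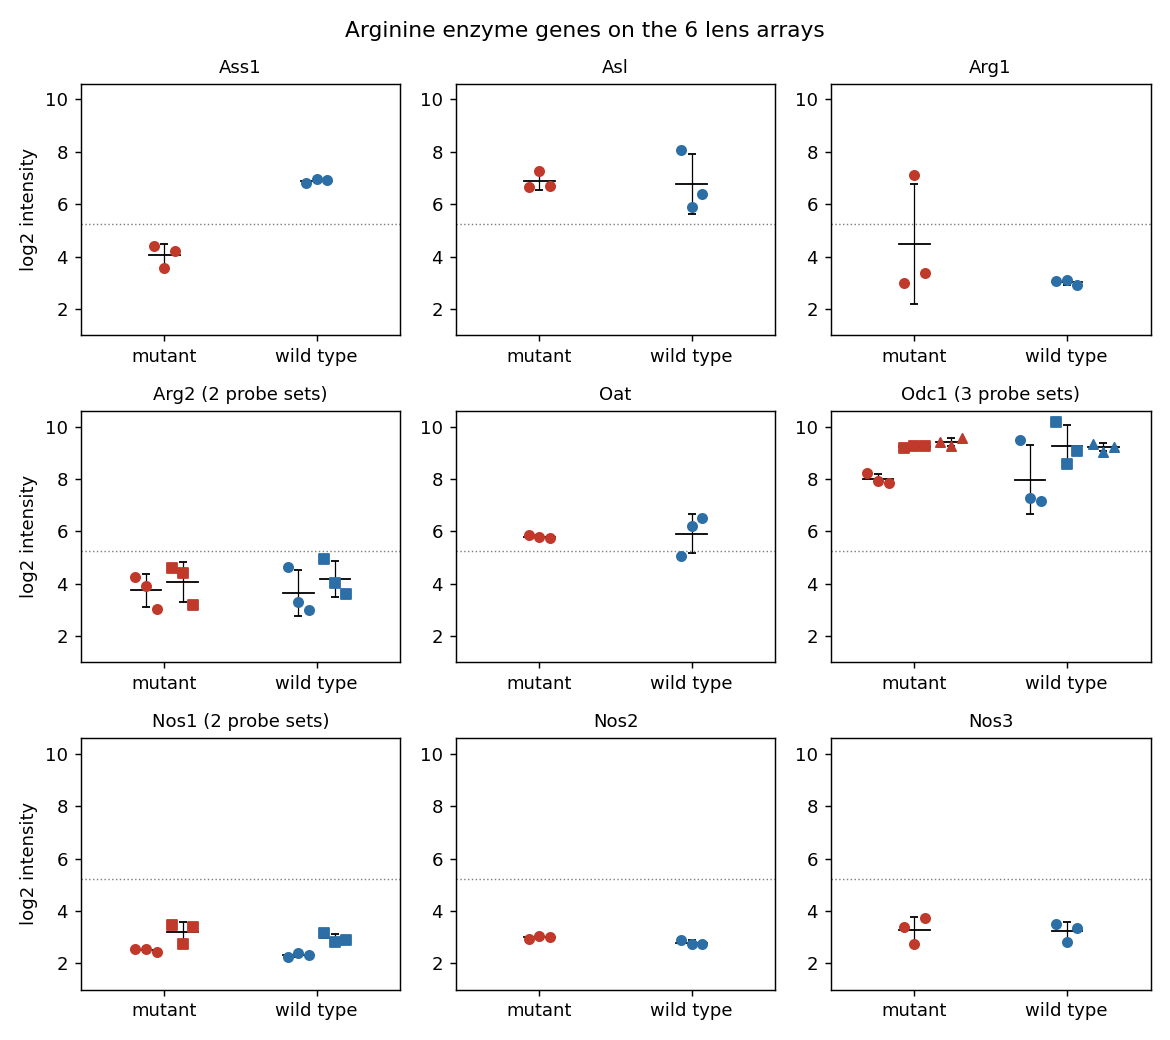
Log2 intensity (vertical axis) of the 13 probe sets of the 9 genes in each array, with 1 panel per gene, mutants in red on the left and wild types in blue on the right; points in a cluster are replicates 1 to 3 from left to right, shapes are probe sets, horizontal bars are means, whiskers are SD, and the dotted line is the mean of the array medians. Ass1 is the gene with widely separated groups, Arg1 has 1 high mutant, and wild-type replicate 1 is apart from the other wild types in Asl, Arg2, Oat and 2 of the 3 Odc1 probe sets.

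Of the other 8 genes, none passed the test over all probe sets. limma, with Benjamini-Hochberg adjustment, called 0 of their 12 probe sets at an adjusted p under 0.05, where 0% of the 22626 probe sets tested were called. At an unadjusted p under 0.05 it counted 0 of 12, against 3.28% of all probe sets, and each of the 12 had an adjusted p of 0.999. In 9 of the 12 the mutant mean was higher and in 3 it was lower, with a median difference of 0.10, against -0.02 over all probe sets. The groups did not overlap in 2 of the 12, where 8.36% of all probe sets had groups that did not overlap. Both were nitric oxide synthase probe sets near the bottom of the range.

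Asl, which takes the product of Ass1, overlapped between the groups. Its probe set was at 6.66, 7.28 and 6.71 in mutants, against 8.06, 5.88 and 6.41 in wild types. The mutants lay inside the range of the wild types, in which replicate 1 was the highest of all arrays and replicate 2 the lowest. The mean was 6.88 ± 0.34 in mutants, against 6.78 ± 1.14 in wild types (SD, n = 3), a difference of 0.10 ± 0.56 (SE). Without wild-type replicate 1 the difference was 0.74, without wild-type replicate 2 it was -0.35, and without mutant replicate 2 it was -0.09, so its sign rested on which arrays were included. Each array had an Asl level above its own median. A difference of the size of that SE was not detectable with these arrays.

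Arg1, the cytosolic arginase that is abundant in liver and in some activated macrophages, was bright in 1 lens only. It was at 2.99, 7.11 and 3.36 in mutants, against 3.07, 3.13 and 2.92 in wild types. As intensities these were 7.95, 138.4 and 10.3 in mutants and 8.40, 8.74 and 7.56 in wild types. Mutant 2 was the only array above its own median, and 4 of the other 5 lay under the lower quartile of their array. The difference of 1.45 ± 1.04 (SE) over all arrays was 0.14 without mutant 2.

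Macrophage markers stood high in the same lens. The 16 macrophage genes summed to 1144, 4684 and 1566 in mutants 1 to 3, against 1083, 1437 and 1186 in wild types 1 to 3. Mutant 2 had the highest sum, mutant 3 also exceeded every wild type, and mutant 1 lay within the range of the wild types. Of the 16 genes, 15 had higher means in mutants and 1 lower. Ptprc, the common leukocyte phosphatase, was dim at 3.69, 5.07 and 4.56 in mutants and 3.49, 3.34 and 3.23 in wild types, with every mutant above every wild type. Csf1r, the receptor for macrophage colony-stimulating factor, was at 7.39, 9.49 and 7.27 in mutants and 8.06, 6.26 and 6.93 in wild types. In both genes mutant 2 was the highest of the 6 arrays, as it was for Arg1. This did not hold for all 16, as the dim genes Cd14, C1qa and Itgam were highest in mutant 3. Whether macrophages carried the Arg1 signal was not tested. Nos2, the inducible nitric oxide synthase of activated macrophages, was also highest in mutant 2, but low on all 6 arrays. It was at 3.04 there, beside 2.94 and 2.99 in the other mutants and 2.90, 2.76 and 2.74 in wild types.

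**Figure D2:**
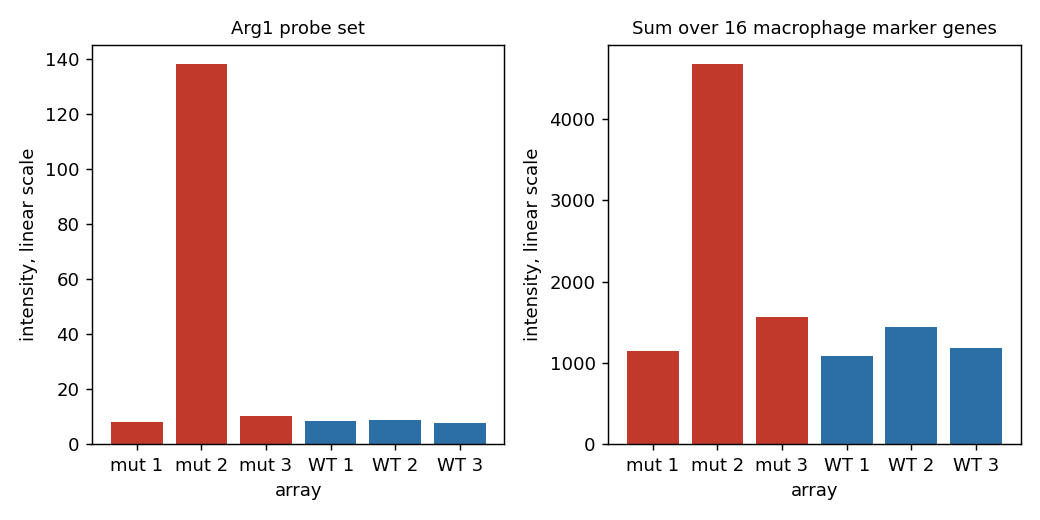
Intensity on a linear scale (vertical axes, from 0) for the Arg1 probe set and for the sum over 16 macrophage marker genes, with 1 bar per array, mutants in red and wild types in blue. Mutant 2 has the tallest bar in both plots, at 138.4 for Arg1 and 4684 for the marker sum.

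Arg2, the mitochondrial arginase, was dim on both of its probe sets. The first was at 4.27, 3.93 and 3.05 in mutants and 4.66, 3.31 and 3.01 in wild types, a difference of 0.09 ± 0.51 (SE). The second was at 4.62, 4.43 and 3.21 in mutants and 4.93, 4.04 and 3.60 in wild types, a difference of -0.10 ± 0.49. On both probe sets wild-type replicate 1 was the highest array, the groups overlapped, and no array reached its own median. Without wild-type replicate 1 the differences were 0.59 and 0.27.

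Neither ornithine enzyme had a probe set that passed the test. Oat, the mitochondrial enzyme that turns ornithine towards glutamate and proline, was at 5.88, 5.78 and 5.74 in mutants and 5.07, 6.20 and 6.49 in wild types. The mutants were close together, with an SD of 0.07 against 0.75 in wild types, and lay between wild-type replicate 1 and the other wild types. Its difference of -0.12 ± 0.38 (SE) became -0.55 once wild-type replicate 1 was left out.

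Odc1, the rate-limiting enzyme of polyamine synthesis, was the only one of the 9 genes with 3 probe sets. The first was at 8.22, 7.90 and 7.85 in mutants and 9.48, 7.28 and 7.17 in wild types, a difference of 0.02 ± 0.62 (SE). The second, of a type whose probes can bind other transcripts, was at 9.19, 9.26 and 9.25 in mutants and 10.16, 8.57 and 9.07 in wild types, a difference of -0.04 ± 0.40. On both, wild-type replicate 1 was the highest array, and the mutants lay between it and the other wild types. The third was at 9.42, 9.27 and 9.58 in mutants and 9.34, 9.05 and 9.22 in wild types, a difference of 0.21 ± 0.19. There wild-type replicate 1 was not apart, so the probe sets of Odc1 disagreed about that array. Without it the differences were 0.77, 0.41 and 0.28, all higher in mutants.

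The nitric oxide synthases were dim in every lens. Nos1, the neuronal form, was at 2.55, 2.56 and 2.44 in mutants and 2.26, 2.40 and 2.31 in wild types on its first probe set, and at 3.45, 2.73 and 3.37 in mutants and 3.15, 2.84 and 2.89 in wild types on its second. Nos2 was at 2.94, 3.04 and 2.99 in mutants and 2.90, 2.76 and 2.74 in wild types. Nos3, the endothelial form, was at 3.38, 2.72 and 3.72 in mutants and 3.51, 2.82 and 3.35 in wild types. All of these lay under the median of their array, and the first Nos1 probe set and Nos2 lay under the lower quartile on all 6 arrays.

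On the first Nos1 probe set and on Nos2 every mutant exceeded every wild type, by differences of 0.19 ± 0.16 and 0.19 ± 0.16 (SE). In intensity units the first Nos1 probe set was at 5.43 to 5.90 in mutants and 4.78 to 5.27 in wild types. With 32 added to each intensity the differences were 0.03 for Nos1 and 0.04 for Nos2. The second Nos1 probe set differed by 0.23 ± 0.25 and Nos3 by 0.05 ± 0.32. Nos3 stayed dim in every lens, while 7 of the 11 endothelial markers were lower in mutants. Of those, Pecam1, an adhesion molecule of endothelium, was dim as well and differed by -0.49 ± 0.35. Cdh5, among the 4 markers that were higher, was also dim and differed by 0.13 ± 0.27.

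**Figure D3:**
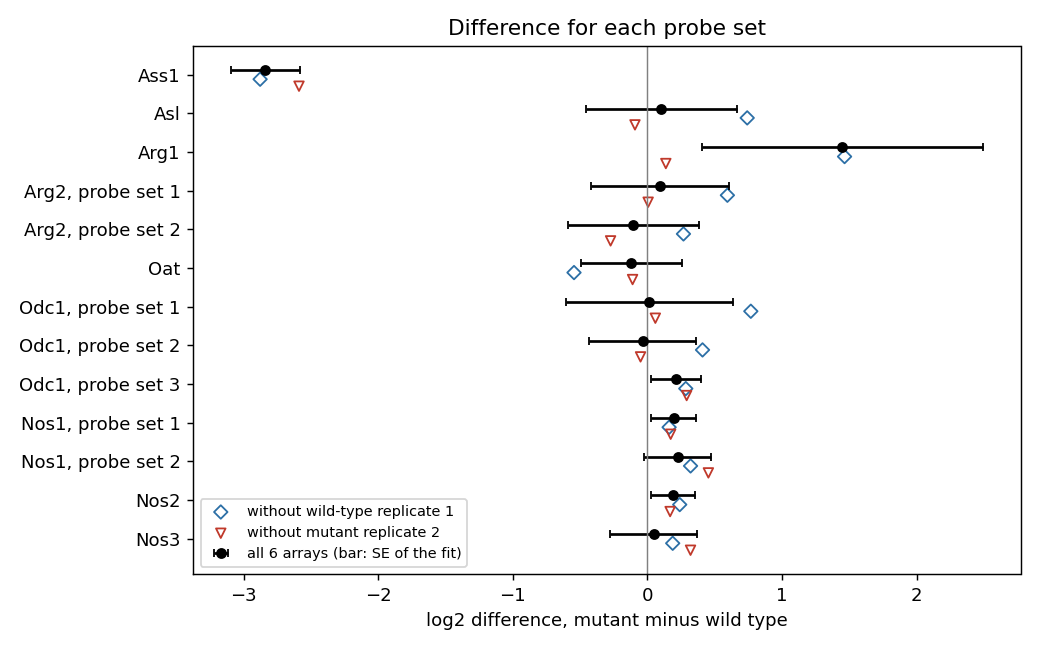
Log2 difference, mutant minus wild type (horizontal axis), of each of the 13 probe sets, with black points and SE bars for all 6 arrays, open blue diamonds without wild-type replicate 1 and open red triangles without mutant replicate 2. Ass1 stays between -2.88 and -2.59 in all versions drawn, Arg1 moves to 0.14 without mutant 2, and Asl moves to 0.74 without wild-type replicate 1.

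Genes that supply arginine or use its products were described from 7 lists with 65 entries, of which 51 were measured. limma called 0 of the 51 higher and 0 lower at an adjusted p under 0.05, where 0% of 12393 genes were called. At an unadjusted p under 0.05 there was 1, against 3.85% of all genes. There were 19 with higher and 32 with lower means in mutants, and the median difference was -0.07, against -0.01 over all genes. Every gene named from these lists had an adjusted p of 0.999.

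The list of arginine transport genes, which is not confined to carriers that bring arginine into cells, gave mixed values. Of 8 measured, 4 were higher and 4 lower, with a median difference of 0.00 on the log2 scale. Slc7a3, a cationic amino acid transporter, was dim on average, at 3.77, 3.79 and 6.50 in mutants against 2.88, 3.29 and 3.70 in wild types. Every mutant exceeded every wild type, yet mutant 3 alone set the size of the difference of 1.40 ± 0.75 (SE), which was 0.49 without it. Slc7a6, which exchanges arginine for neutral amino acids, differed by 0.39 ± 0.38, which became -0.01 without wild-type replicate 1, and its second probe set by -0.03 ± 0.25.

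The early enzymes of the urea cycle were at the bottom of the range in both groups. Cps1, which makes carbamoyl phosphate in liver mitochondria, had a mean level of 2.59 ± 0.23 in mutants and 2.66 ± 0.20 in wild types. Nags, which makes its activator, had 2.97 ± 0.18 in mutants, against 3.02 ± 0.03 in wild types (SD, n = 3). All 3 measured genes of this list were dim, with differences between -0.07 and -0.03.

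Among genes of the creatine and agmatine branch, Slc6a8 was the 1 gene with an unadjusted p under 0.05. This creatine transporter was at 7.13, 7.36 and 6.98 in mutants, against 6.56, 5.91 and 6.53 in wild types. Every mutant exceeded every wild type, with a difference of 0.83 ± 0.24 (SE), or 1.77-fold, and between 0.61 and 0.94 with single arrays left out. Its second probe set differed by 0.01 ± 0.16. Ckmt1, a mitochondrial creatine kinase, was dim and differed by 0.38 ± 0.20, or 0.05 ± 0.18 on its second probe set, and Gatm, which makes the creatine precursor from arginine, was dim and differed by -0.30 ± 0.25. Gatm was chosen after its values were seen. Of the 7 genes in this branch 4 were higher and 3 lower.

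Of 10 polyamine genes measured, 9 were not dim. By their means, 2 were higher and 8 lower in mutants, with a median difference of -0.08. Dohh, which completes the hypusine modification of a translation factor, differed by -0.37 ± 0.26, and Azin1, which relieves ornithine decarboxylase from its antizymes, by 0.31 ± 0.37 (SE). Without wild-type replicate 1 the difference of Azin1 was -0.09 and that of Dohh -0.23. On their second probe sets Dohh differed by -0.07 ± 0.23 and Azin1 by 0.05 ± 0.30.

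In the proline and glutamate list 3 of 6 genes were higher and 3 lower. Glul, glutamine synthetase, was at 11.94, 11.87 and 12.14 in mutants and 11.00, 11.78 and 11.68 in wild types, with every mutant above every wild type. Its difference of 0.50 ± 0.26 was 0.26 without wild-type replicate 1, and its second probe set differed by 0.42 ± 0.25. Prodh, which starts proline breakdown, was dim and differed by -0.69 ± 0.43, or -0.24 with wild-type replicate 1 left out.

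For aspartate and fumarate, the partners of the Ass1 and Asl reactions, 3 of 8 genes were higher and 5 lower. Asns, asparagine synthetase, differed by 0.61 ± 0.54 on one probe set and 0.60 ± 0.51 on the other, and the first value lay between 0.06 and 1.09 with single arrays left out. Adsl, the lyase of purine synthesis that also releases fumarate, differed by -0.44 ± 0.34, or -0.09 with wild-type replicate 1 left out. Among cofactor enzymes and regulators of nitric oxide signalling 3 of 9 were higher and 6 lower. Spr, which makes the cofactor tetrahydrobiopterin, differed by -0.33 ± 0.22, or -0.17 with wild-type replicate 1 left out. Every mutant was below every wild type in Spr, but narrowly, with the highest mutant at 6.09 and the lowest wild type at 6.13. Gucy1b1, a subunit of the guanylate cyclase that senses nitric oxide, differed by 0.90 ± 0.80, or -0.04 with wild-type replicate 1 left out, and its second probe set by -0.29 ± 0.23. Counting all 7 lists, the groups did not overlap for 5 of 51 genes, where 8.8% of all genes had groups that did not overlap.

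**Figure D4:**
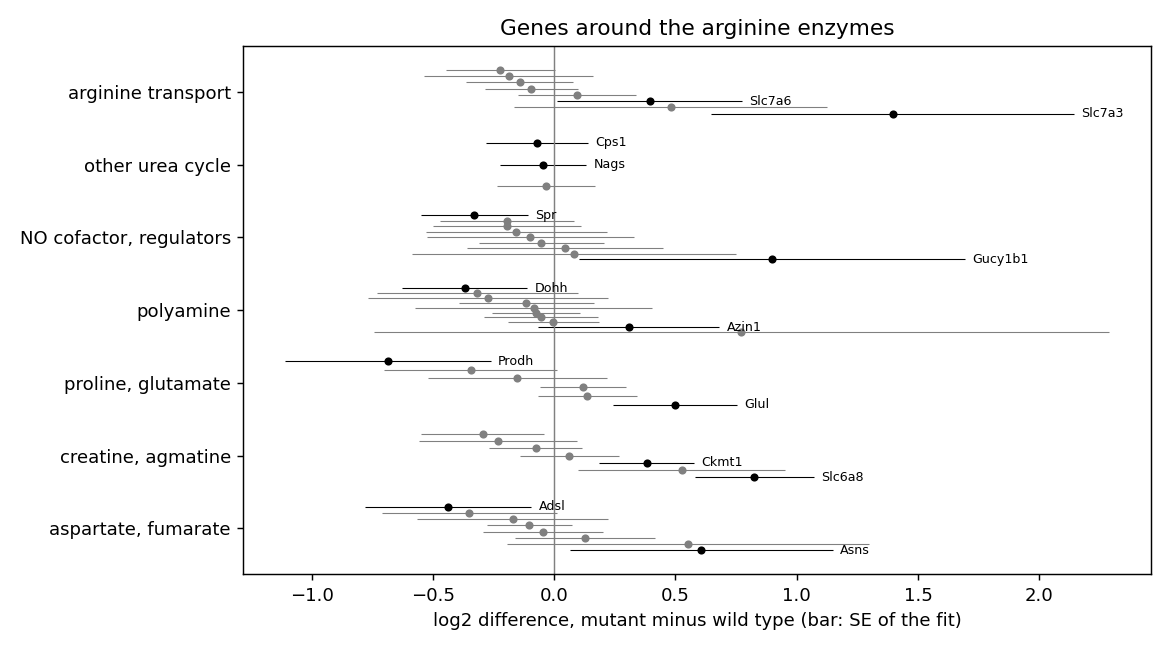
Log2 difference, mutant minus wild type, with its SE (horizontal axis) for the 51 measured genes of the 7 lists (rows), each point 1 gene and the 2 of lowest p per list named in black. The values run from -0.69 for Prodh to 1.40 for Slc7a3, and most bars reach or cross 0.

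The genes whose levels followed Ass1 most closely over the 6 arrays were found among 10391 probe sets with 1 gene symbol that were not dim. The 6 with the highest Pearson correlation to Ass1 were Lars (r = 0.987), Lix1 (0.985), Celsr1 (0.980), Spon1 (0.980), Pygl (0.978) and Psmg1 (0.974), and 10 probe sets exceeded 0.95. These values are a description over 6 arrays that form 2 groups apart in Ass1. Choice by correlation with Ass1 therefore selects genes with lower means in mutants, which all 6 had. The sizes of their differences were not alike. Pygl, a glycogen phosphorylase of liver, was at 5.11, 5.10 and 5.42 in mutants against 7.56, 7.18 and 7.54 in wild types, a difference of -2.22, whereas Lars, the cytosolic leucyl-tRNA synthetase, differed by -0.42 and the cadherin family member Celsr1 by -0.49. Spon1, a secreted matrix protein, differed by -0.67, Lix1 by -0.76 and Psmg1, a proteasome assembly chaperone, by -0.47. The list was not stable: without wild-type replicate 1, and likewise without wild-type replicate 2, 0 of these 6 were among the 6 closest.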

How the data were processed

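RNA from 6 newborn mouse lens samples was hybridised to 1 array each after amplification and biotin labelling, per the labels' protocols. The deposited values are intensities on a linear scale, processed by the authors with RMA per the submitters' processing notes. Its version and settings, and the genome build, are not given in the sources used here. Groups came from sample titles, and 0 sample columns were left unused. At most 0.186% of probe sets had equal values in a pair of arrays.

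The log2 of each intensity was taken with no offset, and 64 array controls were left out. Names came from the array platform's annotation: 20380 had 1 symbol, 691 several and 1555 none. For list genes the brightest probe set with 1 symbol stood for the gene; older symbols were matched through a RefSeq gene table. Tests used limma 3.58.1 in R 4.3.3 (lmFit and eBayes, two-sided, Benjamini-Hochberg over 22626 probe sets, threshold 0.05), tested on simulated data. The genes named were all 9 members, from each list the 2 of lowest p, the 6 closest to Ass1 by correlation, and fixed markers; Gatm was added after its values were seen. Members and lists were chosen with earlier results of these data known. Titles give both groups replicate numbers 1 to 3, but nothing says that a number marks a shared litter, and deviations of same-numbered arrays correlated at -0.07, -0.26 and -0.16. Promoter sequences are from RefSeq, GRCm38.p6.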

Additional observations from a re-analysis of the deposited data

How the results depend on the processing

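Of 161 values of the 12 probe sets other than Ass1 under alternative settings, 0 became called. A difference within 1 SE of 0 was taken to have no direction, which held for 8 of the 12 from the start, so these could not reverse; 7 of the 12 had values of both signs, such as Asl from -0.35 to 0.74 and the first Odc1 probe set from -0.39 to 0.81. The other 4 had 0 reversals. The difference of Ass1 was -1.63 with 32 added to each intensity, and otherwise lay between -3.00 and -2.59, the range with single arrays left out. It was -2.90 with median centring and -2.84 with the replicate block, which changed no call; the samples share only a number. limma called 0 probe sets in all settings except array weights, which gave 7, and 742 had an unadjusted p under 0.05. Array weights were 0.224, 0.569 and 5.65 for wild types 1 to 3, so the wild-type mean then rested mostly on replicate 3. The 51 related genes had 0 calls throughout, with a median difference between -0.13 and 0.01. With single arrays left out, 0 to 4 of the 6 genes closest to Ass1 remained, an alternative chosen after seeing the data. Dim signal limits Arg1, Arg2 and the nitric oxide synthases, whose differences rest on a few intensity units outside mutant 2; these were not fitted when dim probe sets were left out.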
